A study of Mus musculus with 13 samples.

Results

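Cells make cholesterol from acetyl-CoA by a long chain of enzymes, and most of those enzymes are switched on together by the SREBP transcription factors, which are encoded by Srebf1 and Srebf2. When sterols are plentiful, the Insig proteins hold SREBP and its escort Scap in the endoplasmic reticulum, and when sterols run short the factor is cut free and enters the nucleus, where Fbxw7, the part of an SCF ubiquitin ligase that picks its targets, marks it for degradation. Surplus cholesterol is exported or stored, and the export genes are driven by the liver X receptors Nr1h2 and Nr1h3, which are activated by oxysterols. In the mammary gland both the fat pad and the milk-producing epithelium use this pathway.

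Here 32 genes of sterol synthesis and cholesterol handling were described in 10 libraries of RNA from mice. They were given as a list of symbols: 5 regulators, 7 enzymes from acetyl-CoA to farnesyl diphosphate, 11 enzymes from farnesyl diphosphate to cholesterol, 5 genes of uptake, transport and storage, and 4 genes of efflux and its control. All 32 were among the 38279 symbols of the count table and among the 20101 that passed the filter on low counts, so none was lost to it. The lowest count behind any of their values was 40, for Hsd17b7 in tumour 1.

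The comparison was of 6 mammary tumours with 4 whole wild-type mammary glands. The glands came from Cre-negative mice, of 20 weeks for glands 1 to 3 and 40 weeks for gland 4. The tumours came from Cre-positive mice of 25, 32, 39, 19, 53 and 25 weeks for tumours 1 to 6. Both kinds of mice were mated at 12 weeks, the step that set off excision of Fbxw7 where Cre was present. The labels give the tumours' Cre status and not an Fbxw7 genotype, and the labels do not name the promoter that drives Cre. The 3 samples of purified epithelium in the series were not analysed here. Genotype, tumour state, tissue make-up and, in part, age differ between the groups at once and cannot be told apart. RNA levels do not measure the SREBP proteins on which the ligase acts.

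Several libraries stood apart, and this bears on the results that follow. Summed counts per library ran from 13723065 in gland 3 to 48353114 in gland 2. Fbxw7 transcripts averaged 33.5 ± 33.4 CPM (SD, n = 4; read counts relative to library size, scaled by the TMM method) in the glands and 30.9 ± 10.4 CPM (SD, n = 6) in the tumours, and a gene-level count does not show whether an exon was excised. Transcripts of 18 salivary gland markers took 52.4% of all counts in tumour 1 and 19.6% in tumour 6, against at most 0.0530% in every other library. Gland 4 gave 37.5% of its counts to mitochondrial genes, against 8.07% to 14.02% elsewhere, and 8.37% to muscle markers. Adipocyte markers, 15 in all, took 2.39% to 3.17% of counts in glands 1 to 3, 0.282% in gland 4 and 0.00472% to 0.133% in the tumours. None of the adipocyte markers was at 0 in any library except Lep in tumour 4. The 11 luminal epithelial markers summed to 466 to 796 CPM in the glands and 2012 to 4390 CPM in the tumours, so luminal markers were present in every tumour. As a share of all counts they took 0.0364% to 0.0889% in the glands, 0.0842% in tumour 1 and 0.283% to 0.499% in tumours 2 to 6. The gap between tumour 1 and the glands thus depended on TMM scaling. In such bulk RNA, fewer cells of a type and less RNA per cell cannot be told apart.

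Of the 32 genes, 1 rose and 3 fell in the tumours by edgeR's quasi-likelihood test at an adjusted p below 0.05, and 28 did not pass. The gene that rose was Sqle, and those that fell were Nr1h3, Insig1 and Sc5d. Over all 20101 genes tested, 6.89% rose and 8.19% fell, so both shares among the sterol genes (3.12% and 9.38%) were near the background. The median log2 difference of the 32 genes, tumour minus gland, was -0.22, against 0.17 for all genes tested, with 13 values above 0 and 19 below. With upper-quartile in place of TMM scaling these medians were -0.07 and 0.32, and over all genes 1809 rose and 1313 fell, against 1384 and 1646 with TMM scaling. By TMM-scaled level every tumour lay above every gland for Ebp alone among the 32, a separation found in 6.54% of all genes tested. Below every gland they lay for Nr1h3 alone, found in 7.5%. The plot of differences by gene shows that each list held values on both sides of 0.

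**Figure D1:**
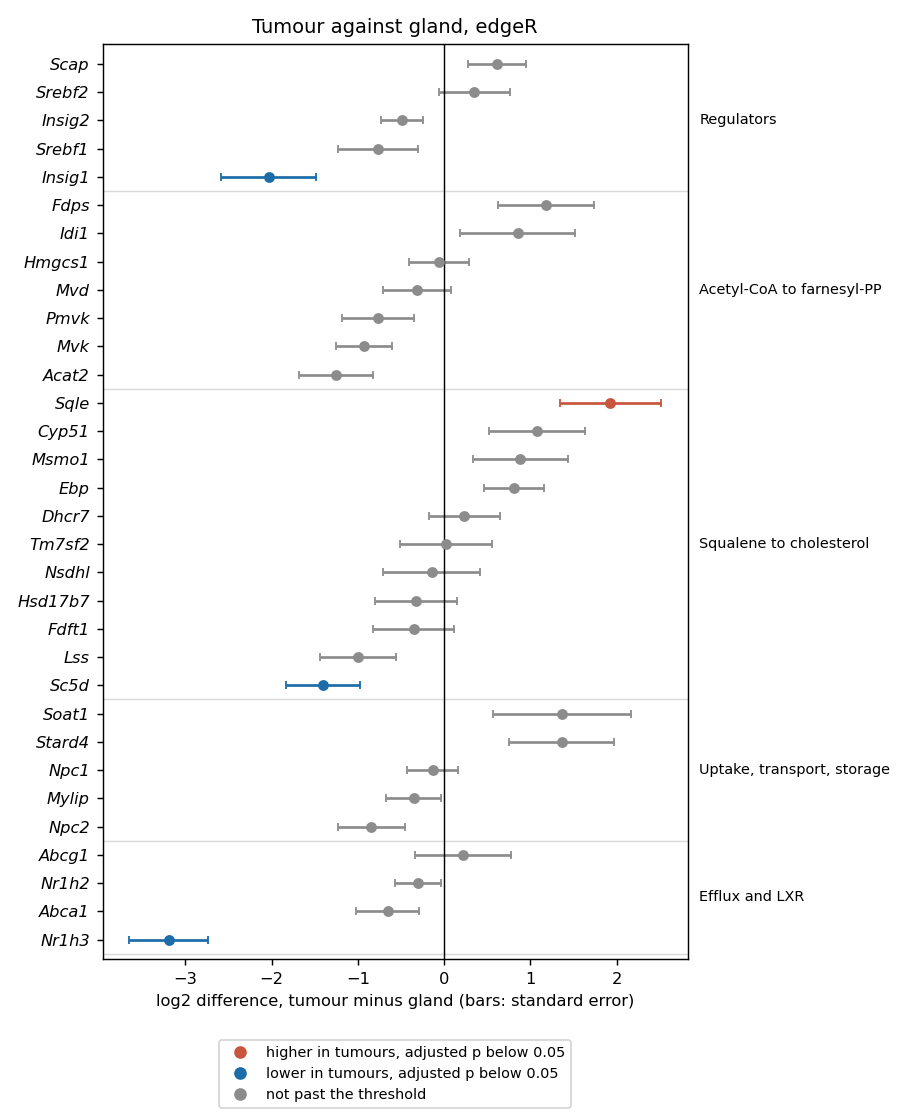
Log2 difference of each of the 32 genes, tumour minus gland, from edgeR (horizontal axis; bars are standard errors), with genes grouped by role on the vertical axis and coloured by whether they passed an adjusted p of 0.05. Nr1h3 lies farthest to the left at -3.19, Sqle farthest to the right at 1.93, and 28 of the 32 genes are grey.

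The promoters are shown because members of this pathway are known to be switched on together by SREBP, which binds sterol regulatory elements and E-boxes beside the CCAAT-binding factor NF-Y. RefSeq promoter windows on GRCm38.p6 were found for 26 of the 32 genes, and Fdps, Fdft1, Sqle, Stard4, Npc1 and Abcg1 had none. The stretch upstream of the start is printed 5′ to 3′ on the gene's own strand for 4 enzymes along the route (Hmgcs1, Idi1, Cyp51 and Msmo1) and for 2 of the genes that fell (Insig1 and Sc5d). Capitals mark exact matches, on either strand, to the sterol element TCACNCCAC, the E-box CACGTG or CCAAT, which reads ATTGG on the opposite strand.
Hmgcs1, chr13:119690101-119690350, plus strand: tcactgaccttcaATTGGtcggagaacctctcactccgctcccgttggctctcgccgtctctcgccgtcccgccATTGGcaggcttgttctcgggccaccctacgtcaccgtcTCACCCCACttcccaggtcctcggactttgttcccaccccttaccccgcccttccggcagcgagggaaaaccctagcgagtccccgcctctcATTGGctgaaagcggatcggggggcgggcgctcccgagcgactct
Idi1, chr13:8885356-8885605, plus strand: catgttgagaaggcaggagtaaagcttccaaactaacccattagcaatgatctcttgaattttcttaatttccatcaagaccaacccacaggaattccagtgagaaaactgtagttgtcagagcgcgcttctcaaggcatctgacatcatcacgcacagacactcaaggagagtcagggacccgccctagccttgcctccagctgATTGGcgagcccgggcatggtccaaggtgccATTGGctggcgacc
Cyp51, chr5:4104698-4104947, minus strand: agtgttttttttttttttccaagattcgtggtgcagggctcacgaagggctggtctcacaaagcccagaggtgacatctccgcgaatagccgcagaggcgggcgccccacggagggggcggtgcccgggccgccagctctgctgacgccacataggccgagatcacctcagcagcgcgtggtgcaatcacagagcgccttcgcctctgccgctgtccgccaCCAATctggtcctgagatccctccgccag
Msmo1, chr8:64733579-64733828, minus strand: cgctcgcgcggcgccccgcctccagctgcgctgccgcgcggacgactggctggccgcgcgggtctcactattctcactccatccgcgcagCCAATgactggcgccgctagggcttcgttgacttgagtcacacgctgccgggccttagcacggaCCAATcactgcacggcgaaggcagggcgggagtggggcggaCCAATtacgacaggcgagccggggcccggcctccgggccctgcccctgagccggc
Insig1, chr5:28071162-28071411, plus strand: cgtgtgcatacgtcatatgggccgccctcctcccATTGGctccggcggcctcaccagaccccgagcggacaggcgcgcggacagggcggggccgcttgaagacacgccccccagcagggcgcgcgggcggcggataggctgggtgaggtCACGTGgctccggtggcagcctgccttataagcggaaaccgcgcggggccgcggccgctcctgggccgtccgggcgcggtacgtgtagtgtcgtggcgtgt
Sc5d, chr9:42264301-42264550, minus strand: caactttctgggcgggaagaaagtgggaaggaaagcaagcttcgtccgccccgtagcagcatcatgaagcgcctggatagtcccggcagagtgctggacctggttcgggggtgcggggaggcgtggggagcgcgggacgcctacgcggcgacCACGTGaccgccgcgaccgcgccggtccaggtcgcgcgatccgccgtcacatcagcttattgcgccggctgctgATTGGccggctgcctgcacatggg

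CCAAT was present on either strand in the windows of 21 of the 26 genes (80.8%), against 41.1% of 27025 genes with a window and 42.1% of the 13011 tested genes with a window. An E-box CACGTG was in 6 of 26 (23.1%), namely Abca1, Dhcr7, Hsd17b7, Insig1, Sc5d and Scap, against 8.09% and 10.8%. The sterol element in the exact form searched was in Hmgcs1 alone (3.85% of 26), against 1.44% of all genes and 1.38% of tested genes. Acat2, Nr1h2 and Nr1h3 had no match to any of these motifs. Every printed stretch holds a match, but Nr1h3, the gene with the largest fall, is not among those printed. In the printed stretches no 2 matches overlap, and the windows also hold a short stretch past the start that is not printed. A gene counted if any of its windows matched, and the 26 genes had 35 windows. Counted by window, CCAAT was in 62.9% of these against 37.4% of all 32851 windows. The E-box was in 20.0% against 7.15%, and the sterol element in 2.86% against 1.24%. These are matches of letters and not measured binding.

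The regulators come first. Insig1, the sterol-dependent anchor that keeps the SREBP and Scap complex in the endoplasmic reticulum and is itself an SREBP target, stood at 338, 189, 156 and 49.7 CPM in glands 1 to 4 and 44.1, 29.1, 104, 31.6, 17.3 and 42.99 CPM in tumours 1 to 6. Tumours 1, 2, 4, 5 and 6 lay below every gland, while tumour 3 lay between glands 3 and 4. The log2 difference was -2.03 ± 0.55 (SE; adjusted p = 0.0328, edgeR). That call was lost without gland 1, 2 or 3 or without tumour 2, 4 or 5, with adjusted p between 0.0148 and 0.120 over the 10 fits that each left out 1 library. The call was also lost with age as a covariate (log2 -1.67, adjusted p = 0.141) and without tumours 1 and 6 (log2 -2.04, adjusted p = 0.0620). Summed adipocyte markers moved the same way, at 4869 CPM in gland 4, 18052 to 29447 CPM in the other glands and 53.2 to 1340 CPM in the tumours, and their part in the fall of Insig1 was not tested.

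Insig2, the related anchor that is not driven by SREBP, ran at 48.99, 32.1, 33.4 and 55.96 CPM in the glands and 28.03, 23.2, 36.1, 33.4, 28.2 and 33.01 CPM in the tumours. The groups overlapped, with 3 tumours below the lowest gland and a log2 difference of -0.49 ± 0.25 (adjusted p = 0.184, edgeR). Srebf1, which encodes the SREBP-1 forms tied chiefly to fatty acid synthesis, averaged 167 ± 106 CPM (SD, n = 4) in the glands, lowest in gland 4 and highest in gland 1 (309.9, 168, 133 and 57.9 CPM in glands 1 to 4). In the tumours it averaged 98.3 ± 43.2 CPM (SD, n = 6), lowest in tumour 5 and highest in tumour 6 (59.5, 99.9, 76.7, 138, 55.1 and 160.4 CPM in tumours 1 to 6). This difference of -0.77 ± 0.46 on the log2 scale did not pass (adjusted p = 0.258, edgeR), and the gland values alone spanned 5.36 times.

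Srebf2, which encodes SREBP-2, the form tied chiefly to cholesterol synthesis, stood at 46.8, 74.4, 60.1 and 18.4 CPM in the glands and 31.2, 94.5, 46.2, 73.8, 56.7 and 79.4 CPM in the tumours. These ranges overlapped widely, with a log2 difference of 0.35 ± 0.41 (adjusted p = 0.565, edgeR). The count of Srebf2 divided by that of Srebf1 in the same library does not depend on scaling between libraries. That ratio was 0.151, 0.443, 0.452 and 0.319 for the glands, in order, and 0.524, 0.945, 0.603, 0.533, 1.03 and 0.495 for the tumours. Every tumour lay above every gland, though tumour 6 exceeded the highest gland by little, and the ratio was chosen after the values were seen, so no test is given. Scap, the escort that carries SREBP to the Golgi for cleavage, was at 37.6, 31.3, 26.95 and 15.8 CPM in the glands and 45.9, 54.996, 20.1, 55.5, 38.6 and 40.98 CPM in the tumours. Tumour 3 lay within the gland range and the other 5 tumours above it, and the log2 difference of 0.61 ± 0.34 did not pass (adjusted p = 0.220, edgeR).

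**Figure D2:**
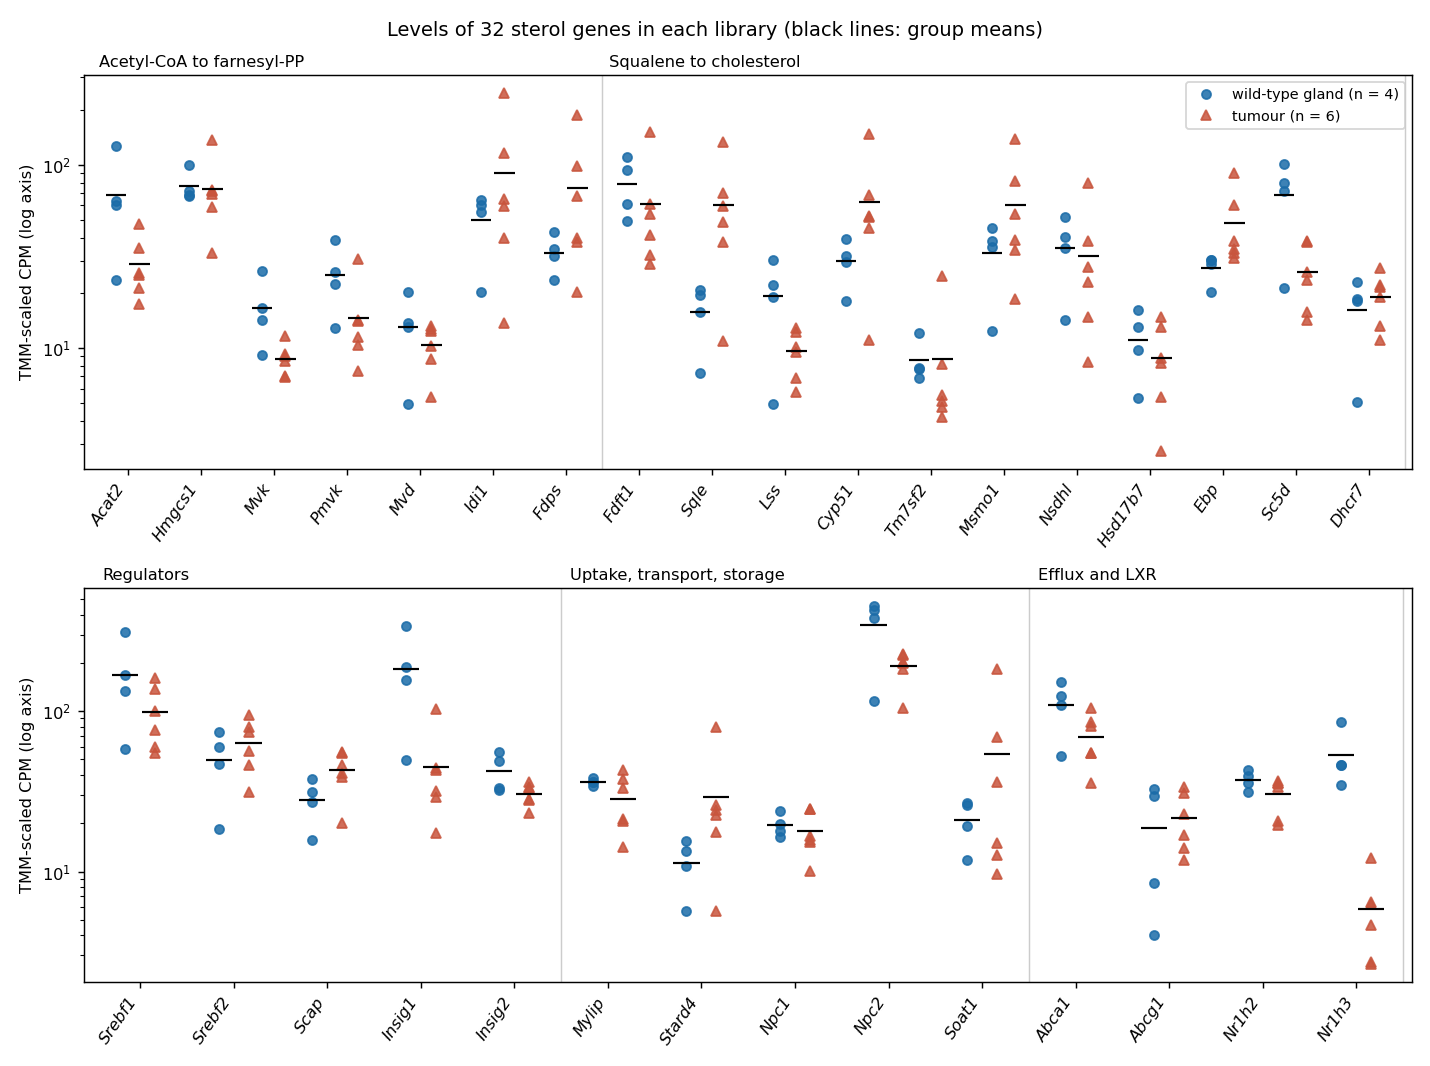
TMM-scaled CPM on a log axis for each of the 32 genes in each library, with glands as circles (n = 4), tumours as triangles (n = 6) and group means as black lines; the upper panel holds the enzymes and the lower panel the other genes. Nr1h3 is lower in all 6 tumours than in any gland, and Sqle is higher in 5 of 6, while most genes overlap.

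The enzymes from acetyl-CoA to farnesyl diphosphate gave no call in either direction among 7 genes, with a median log2 difference of -0.32 against 0.17 for all genes tested. At an unadjusted p below 0.05 there were 2, Acat2 and Mvk, both lower, and DESeq2 called the same 2. Acat2, the thiolase that joins 2 acetyl-CoA units, stood at 126, 63.2, 60.6 and 23.6 CPM in the glands and 17.48, 35.1, 47.8, 21.2, 25.7 and 25.04 CPM in the tumours. All 6 tumours lay below glands 1 to 3 and 4 of them above gland 4, and the log2 difference was -1.25 ± 0.42 (adjusted p = 0.0674, edgeR). Acat3, a close copy of Acat2, averaged only 2.13 CPM in the glands and 0.506 CPM in the tumours, and how reads shared by the copies were divided is not stated. Mvk, mevalonate kinase, gave 26.4, 16.6, 14.3 and 9.09 CPM and 11.7, 8.99, 6.95, 8.49, 7.05 and 9.31 CPM in the same order, with 4 tumours below every gland. Its log2 difference was -0.93 ± 0.32 (adjusted p = 0.0734, edgeR). The DESeq2 calls had adjusted p of 0.0380 for Acat2 and 0.0246 for Mvk.

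Hmgcs1, which makes the HMG-CoA from which mevalonate is formed, stood at 99.8, 68.4, 72.2 and 67.3 CPM in the glands and 32.97, 71.8, 136, 58.7, 72.9 and 69.4 CPM in the tumours. Tumour 3 was the only library above gland 1 and tumour 1 was the lowest of the 10. Between the groups the log2 difference came to -0.06 ± 0.35 (adjusted p = 0.914, edgeR). Pmvk, the kinase after Mvk, averaged 24.9 ± 10.7 CPM (SD, n = 4) and 14.7 ± 8.12 CPM (SD, n = 6), a log2 difference of -0.77 ± 0.42 (adjusted p = 0.215, edgeR). For Mvd, which decarboxylates mevalonate diphosphate, the means were 12.98 ± 6.27 CPM (SD, n = 4) and 10.4 ± 2.997 CPM (SD, n = 6) and the log2 difference -0.32 ± 0.40 (adjusted p = 0.591, edgeR). Neither difference exceeded the spread between libraries.

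The last 2 steps of this stretch had higher means in the tumours. Idi1, the isomerase that gives the activated isoprene unit, stood at 63.9, 54.99, 60.5 and 20.3 CPM in the glands and 13.7, 39.96, 247, 116, 64.9 and 59.3 CPM in the tumours. Tumours 3, 4 and 5 lay above every gland and tumour 1 below every gland, an 18.0-fold span among tumours. With that spread the log2 difference of 0.85 ± 0.67 did not pass (adjusted p = 0.380, edgeR). Fdps, which builds farnesyl diphosphate, gave 42.7, 34.5, 31.6 and 23.6 CPM in the glands and 20.1, 38.1, 186, 98.5, 67.5 and 39.6 CPM in the tumours, again with tumours 3, 4 and 5 above every gland and tumour 1 below. This log2 difference was 1.18 ± 0.56 (adjusted p = 0.1601, edgeR), and without tumours 1 and 6 it was 1.54 and passed (adjusted p = 0.0433). In that fit 10.1% of all genes tested rose, and with gland 4 left out as well Fdps did not pass (1.29, adjusted p = 0.0896). The gene model Gm43738 covers 77.4% of the exonic bases of Fdps on the same strand in GENCODE M21, so the reads of the 2 models may have been divided.

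Among the 11 enzymes from farnesyl diphosphate to cholesterol, 1 rose, 1 fell and 9 did not pass, with a median log2 difference of 0.02. Sqle, squalene epoxidase, the oxygen-dependent and rate-limiting step of the later pathway, stood at 20.8, 19.3, 15.6 and 7.31 CPM in glands 1 to 4 and 10.9, 59.5, 133, 70.4, 48.95 and 37.7 CPM in tumours 1 to 6. Tumours 2 to 6 lay above every gland and tumour 1 lay within the gland range. The tumour mean of 60.1 ± 41.1 CPM (SD, n = 6) was 3.81 times the gland mean of 15.8 ± 6.05 CPM (SD, n = 4). On the log2 scale the difference was 1.93 ± 0.59 (adjusted p = 0.0477, edgeR). That call held without tumour 1 and was lost when any other library was left out, with adjusted p between 0.0139 and 0.111 and log2 differences between 1.53 and 2.12. It was also lost with limma-voom (1.63, adjusted p = 0.0943), with no filter on low counts (1.92, adjusted p = 0.0732) and with age as a covariate (1.92, adjusted p = 0.0978). Luminal epithelial markers also rose, 9 of 11. Their TMM-scaled sum was highest in tumour 3, as Sqle was. As a share of all counts the sum was highest in tumour 2 (0.499%, against 0.390% in tumour 3). By TMM-scaled level 3 of the 11 markers peaked in tumour 3. The part of luminal cells in the Sqle difference was not tested.

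Lss, lanosterol synthase, which closes the ring right after the Sqle step, had lower values. It stood at 30.3, 22.1, 19.05 and 4.96 CPM in the glands and 9.53, 12.3, 12.9, 6.88, 5.75 and 10.1 CPM in the tumours, with all 6 tumours below glands 1 to 3 and above gland 4. The log2 difference of -0.998 ± 0.44 did not pass (adjusted p = 0.136, edgeR). It did when gland 4 was left out, a fit in which 7.22% of all genes tested fell. The count of Sqle divided by that of Lss in the same library was 0.687, 0.874, 0.822 and 1.47 for the glands, in order, and 1.14, 4.85, 10.3, 10.2, 8.51 and 3.71 for the tumours. The ratio averaged 0.964 ± 0.349 (SD, n = 4) in glands and 6.46 ± 3.78 (SD, n = 6) in tumours, with tumours 2 to 6 above every gland and tumour 1 below gland 4. A like pair from the earlier stretch, Idi1 over Mvk, was 2.42, 3.31, 4.24 and 2.23 in the glands and 1.18, 4.45, 35.5, 13.7, 9.21 and 6.37 in the tumours. There too tumours 2 to 6 lay above every gland, while tumour 1 was the lowest of all 10. Both pairs were chosen after the values were seen and carry no test.

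Cyp51, the lanosterol demethylase, stood at 39.6, 31.9, 29.4 and 18.1 CPM in the glands and 11.1, 52.2, 148, 68.2, 45.2 and 51.8 CPM in the tumours. Tumours 2 to 6 were above every gland and tumour 1 below every gland. Its log2 difference came to 1.08 ± 0.55 (adjusted p = 0.193, edgeR), and without tumours 1 and 6 it was 1.38 and passed (adjusted p = 0.0479), but not with gland 4 left out as well (1.09, adjusted p = 0.0951). Msmo1, the C4-methylsterol oxidase that follows, gave 44.97, 38.4, 35.6 and 12.4 CPM and 18.4, 38.7, 138, 81.1, 53.7 and 34.1 CPM, with tumours 3, 4 and 5 above every gland and a log2 difference of 0.88 ± 0.55 (adjusted p = 0.274, edgeR). Ebp, the sterol isomerase, stood at 30.3, 28.6, 30.2 and 20.2 CPM in the glands and 30.8, 32.8, 89.8, 60.4, 38.6 and 34.8 CPM in the tumours. All 6 tumours exceeded every gland, tumour 1 by less than 1 CPM. The log2 difference of 0.81 ± 0.35 nevertheless did not pass (adjusted p = 0.134, edgeR). The separation depended on TMM scaling: as a share of all counts tumour 1 (450 of 34865913) lay below gland 1 (1062 of 32548237).

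Sc5d, the lathosterol oxidase that introduces the C5 double bond, fell. It stood at 101, 71.8, 79.7 and 21.4 CPM in glands 1 to 4 and 23.4, 14.2, 37.7, 15.8, 38.4 and 26.1 CPM in tumours 1 to 6. All 6 tumours lay below glands 1 to 3, and 4 of them lay above gland 4. On the log2 scale Sc5d differed by -1.40 ± 0.43 (adjusted p = 0.0477, edgeR). That call was lost without gland 1, 2 or 3 or without tumour 1, 2, 4 or 6, with adjusted p between 0.0161 and 0.156, and with upper-quartile scaling (-1.24, adjusted p = 0.0557). The same held for limma-voom (-1.33, adjusted p = 0.0716), no filter (-1.44, adjusted p = 0.0724), age as a covariate (-1.51, adjusted p = 0.104) and the fit without tumours 1 and 6 (-1.39, adjusted p = 0.0899). As for Insig1, summed adipocyte markers were lower in the tumours and, among glands, lowest in gland 4, and their part in the fall of Sc5d was not tested. Dhcr7, which performs the final reduction in 1 branch of the pathway, did not pass, at 16.1 ± 7.66 CPM (SD, n = 4) and 19.003 ± 6.04 CPM (SD, n = 6) and a log2 difference of 0.24 ± 0.41 (adjusted p = 0.704, edgeR).

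The remaining enzymes overlapped between the groups. Fdft1, squalene synthase, averaged 78.6 ± 28.2 CPM (SD, n = 4) and 61.4 ± 45.6 CPM (SD, n = 6) (-0.35 ± 0.47 on the log2 scale, adjusted p = 0.612, edgeR). In GENCODE M21, 20.9% of its exonic bases lie opposite exons of Ctsb, whose level averaged 1239 CPM in the glands and 647 CPM in the tumours, and whether reads were counted by strand is not stated. Tm7sf2, a sterol C14-reductase, stood at 5.55, 4.18, 8.14, 24.6, 5.12 and 4.74 CPM in the tumours, of which 4 lay below the gland range of 6.87 to 12.0 CPM and tumour 4 above it. Nsdhl, which removes the C4 carboxyl groups, averaged 35.3 ± 15.7 CPM (SD, n = 4) and 31.9 ± 25.6 CPM (SD, n = 6). For Hsd17b7, the ketoreductase of the same demethylation, the means were 11.1 ± 4.65 CPM (SD, n = 4) and 8.84 ± 4.51 CPM (SD, n = 6). Their log2 differences were 0.02 ± 0.53, -0.15 ± 0.57 and -0.32 ± 0.47 for Tm7sf2, Nsdhl and Hsd17b7, with adjusted p of 0.980, 0.873 and 0.647 (edgeR).

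**Figure D3:**
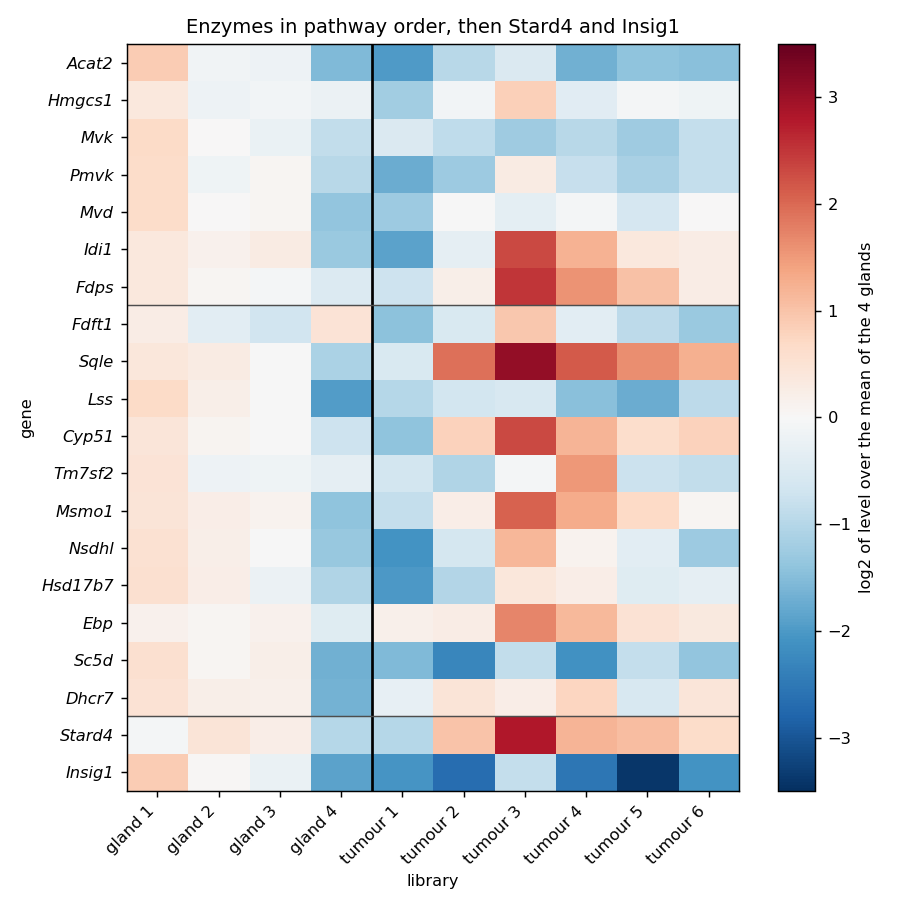
Log2 of each library's TMM-scaled level over the mean of the 4 glands (colour) for the 18 enzymes in pathway order and for Stard4 and Insig1 (vertical axis), with glands to the left and tumours to the right of the black line. Tumour 3 is red for 12 of the 18 enzymes and tumour 1 for 1, and Insig1 is blue in every tumour.

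The tumours also differed from each other. Among the 18 enzymes tumour 3 was the highest tumour in 13 and tumour 1 the lowest in 13. The median log2 distance from the median tumour was -0.91 in tumour 1, -0.06 in tumour 2, 1.11 in tumour 3, 0.39 in tumour 4, -0.06 in tumour 5 and -0.02 in tumour 6. As the map of enzymes by library shows, 12 of the 18 were above the gland mean in tumour 3, 10 in tumour 4, 8 in tumour 6, 6 in tumours 2 and 5 and 1 in tumour 1. The order depends in part on scaling: by CPM of all counts tumour 1 was lowest in 18 and tumour 3 highest in 10. Tumour 3 also had the lowest summed fibroblast markers, 226 CPM against 324 to 6639 CPM in the other tumours. Its summed adipocyte (53.2 CPM) and endothelial (44.8 CPM) markers were likewise the lowest. The 11 milk and alveolar markers summed to 549, 1022, 7570, 5241, 735 and 33844 CPM in tumours 1 to 6. Single genes made up much of the larger sums: Csn1s1 5419 CPM in tumour 3, Csn3 4474 CPM in tumour 4 and Csn2 13600 CPM in tumour 6. Tumour 1 was the library with 52.4% salivary counts. The part of these cell types in the ranks was not tested. Among glands, gland 1 was the highest in 17 of the 18 enzymes and gland 4 the lowest in 17, with Fdft1 the exception in both. By CPM of all counts these became 14 and 18.

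Of the genes of uptake, transport and storage, none of 5 passed in either direction by edgeR or DESeq2 (median log2 difference -0.13), and Stard4 alone had an unadjusted p below 0.05 (1 gene, higher). Stard4, a carrier that moves free cholesterol between membranes and is an SREBP-2 target, stood at 10.8, 15.6, 13.4 and 5.66 CPM in the glands and 5.69, 22.6, 79.5, 26.1, 24.2 and 17.7 CPM in the tumours. Tumours 2 to 6 were above every gland and tumour 1 sat beside gland 4. Its log2 difference of 1.36 ± 0.61 did not pass (adjusted p = 0.143, edgeR), and without tumours 1 and 6 it came to 1.72 and passed (adjusted p = 0.0402), but not with gland 4 left out as well (1.37, adjusted p = 0.0776). Stard4 thus had the same tumours above the gland range as Sqle and Cyp51.

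Soat1, which esterifies cholesterol for storage in droplets, stood at 19.3, 26.6, 26.2 and 11.8 CPM in the glands and 183, 12.7, 9.62, 14.98, 36.04 and 69.4 CPM in the tumours. The highest values belonged to tumours 1 and 6, the libraries with 52.4% and 19.6% salivary counts. On the log2 scale Soat1 differed by 1.37 ± 0.80 (adjusted p = 0.248, edgeR) and became -0.20 without tumours 1 and 6. Mylip, an E3 ligase that is an LXR target and lowers lipoprotein uptake, was nearly constant in the glands (34.3, 38.5, 36.03 and 36.2 CPM) and ran from 14.1 CPM in tumour 4 to 43.2 CPM in tumour 1. Its log2 difference was -0.35 ± 0.32 (adjusted p = 0.445, edgeR).

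Npc1 and Npc2 hand cholesterol out of the lysosome. Npc1 averaged 19.5 ± 3.25 CPM (SD, n = 4) in the glands and 17.8 ± 5.65 CPM (SD, n = 6) in the tumours, a log2 difference of -0.13 ± 0.29 (adjusted p = 0.769, edgeR). Npc2, the soluble partner, stood at 451, 378, 424 and 115 CPM in the glands and 225, 104, 203, 182, 199 and 228 CPM in the tumours. All 6 tumours lay below glands 1 to 3 and 5 of them above gland 4, with a log2 difference of -0.85 ± 0.39 (adjusted p = 0.151, edgeR). Leaving out gland 4 brought Npc2 past the threshold, as it did for Acat2, Mvk and Lss. In that fit 0 of the 32 genes were called higher and 7 lower, against 4.15% and 7.22% of all genes tested.

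Of the 4 genes of efflux and the liver X receptors, 1 fell and none rose, by edgeR and by DESeq2, and at an unadjusted p below 0.05 too. Nr1h3, which encodes LXR alpha, the receptor abundant in liver, fat and macrophages, stood at 85.8, 46.2, 46.1 and 34.5 CPM in glands 1 to 4 and 6.44, 4.64, 2.65, 2.72, 6.27 and 12.2 CPM in tumours 1 to 6. Every tumour lay below every gland: the highest tumour, 6, was at 12.2 CPM and the lowest gland, 4, at 34.5 CPM. The counts behind these were 543 to 3007 in glands and 94 to 436 in tumours. The tumour mean was 0.109 times the gland mean, a log2 difference of -3.19 ± 0.46 (adjusted p = 0.00374, edgeR). This call held in all 10 fits that left out 1 library (log2 -3.60 to -2.87, adjusted p 0.00274 to 0.0173) and in the other 9 fits tried.

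Nr1h3 and the sum of the adipocyte markers ranked the libraries in the same order, except for glands 2 and 3. Summed, the 15 adipocyte markers were at 787, 146, 53.2, 56.7, 276 and 1340 CPM in tumours 1 to 6, the same order of tumours as for Nr1h3. Gland 1 was highest and gland 4 lowest among glands in both, and tumours 3 and 4 were close in both. The order did not hold for each marker: Fabp4 was lowest in tumour 2, at 3.34 CPM. There Cebpa, Pnpla2, Slc2a4 and Lipe, at 52.4, 33.7, 31.8 and 16.2 CPM, made up most of the sum. All 15 adipocyte markers were lower in the tumours, 14 of them past the threshold, with a median log2 difference of -5.93, a larger fall than that of Nr1h3. Macrophages also express Nr1h3, and their summed markers were at 425 to 1601 CPM in the glands and 551 to 3477 CPM in the tumours. Of the 13, 1 was called higher and none lower, with a median log2 difference of -0.08, 6 values above 0 and 7 below. The marker called higher, Cd14, made up 232 of 551 CPM in tumour 2, 1061 of 1493 CPM in tumour 3 and 510 of 806 CPM in tumour 4. Those were the tumours with the lowest Nr1h3, and Cd14 made up most of the sum in tumours 3 and 4 but not in tumour 2. In tumour 6 Lyz2 alone made up 1963 of 3477 CPM. The part of either cell type in the fall of Nr1h3 was not tested. The scatter of Nr1h3 against adipocyte markers shows 2 separate groups of libraries, so no correlation is given.

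**Figure D4:**
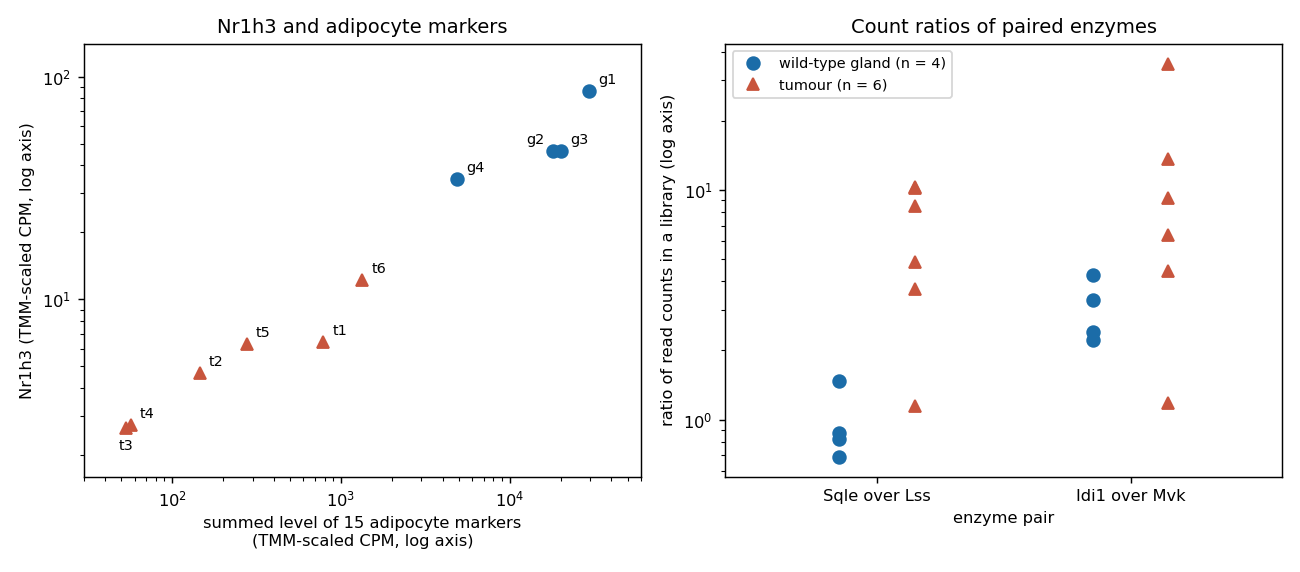
Left, Nr1h3 (vertical, TMM-scaled CPM) against the summed level of 15 adipocyte markers (horizontal, TMM-scaled CPM), both on log axes, with each library labelled. Right, the count of Sqle over Lss and of Idi1 over Mvk in each library on a log axis; tumours 2 to 6 lie above every gland in both pairs and tumour 1 does not.

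Nr1h2, which encodes the widely expressed LXR beta, did not pass the test, at 43.2, 39.4, 31.2 and 35.5 CPM in the glands and 20.6, 36.9, 19.4, 35.5, 33.8 and 35.5 CPM in the tumours. The groups overlapped, with a log2 difference of -0.30 ± 0.26 (adjusted p = 0.432, edgeR). The count of Nr1h3 over that of Nr1h2 was 1.98, 1.17, 1.48 and 0.973 in the glands and 0.313, 0.126, 0.136, 0.0766, 0.185 and 0.343 in the tumours, with no overlap. Such a ratio shows unequal change of the 2 receptors, and it was chosen after the values were seen.

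The exporters driven by these receptors did not pass. Abca1, which loads cholesterol onto lipid-poor apolipoprotein, stood at 151, 124, 109 and 52.5 CPM in the glands and 35.8, 54.95, 80.5, 54.6, 85.2 and 105 CPM in the tumours. All tumours lay below glands 1 to 3 and 5 of 6 above gland 4, and the log2 difference was -0.66 ± 0.36 (adjusted p = 0.224, edgeR). It passed without gland 4 and tumours 1 and 6 (-1.02, adjusted p = 0.0265), a fit in which 13.5% of all genes tested fell. Abcg1, which exports to mature lipoprotein particles, stood at 8.47, 32.7, 29.6 and 4.01 CPM in the glands, the widest gland spread of the 32 genes at 8.17-fold, and averaged 21.7 ± 9.05 CPM (SD, n = 6) in the tumours. The log2 difference was 0.21 ± 0.56 (adjusted p = 0.805, edgeR).

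Other genes of sterol handling gave the wider setting: 47 were listed and 46 tested, of which 1 rose (2.17%, against 6.89% of all genes tested), 9 fell (19.6%, against 8.19%) and 36 did not pass, with a median log2 difference of -0.12. The gene that rose was Tmem97, a membrane protein that binds Npc1 and is induced when sterols run short. It stood at 12.4, 11.9, 10.2 and 8.97 CPM in the glands and 13.98, 27.3, 111, 65.7, 25.5 and 23.8 CPM in the tumours. All 6 tumours lay above every gland, tumour 3 the highest and tumour 1 the lowest, the same ends as for Sqle. For tumour 1 this depended on TMM scaling: as a share of all counts (204 of 34865913) it lay below gland 1 (435 of 32548237). Tmem97 differed by 2.04 ± 0.57 on the log2 scale (adjusted p = 0.0359, edgeR), and leaving out tumour 4 or a gland, whichever of the 4, ended the call, with adjusted p reaching 0.0927. It was also lost with limma-voom (1.69, adjusted p = 0.0679), no filter (2.03, adjusted p = 0.0508) and age as a covariate (2.04, adjusted p = 0.0658). Gramd1c, a sterol transfer protein, also had all tumours above all glands, at 2.71, 1.72, 1.73 and 1.34 CPM and 10.97, 3.65, 5.39, 3.83, 2.94 and 5.85 CPM, but its log2 difference of 1.53 ± 0.47 did not pass (adjusted p = 0.0510, edgeR). It did pass with upper-quartile scaling (1.74, adjusted p = 0.0376), DESeq2 (1.51, adjusted p = 0.00595), the filter of at least 1 CPM in 4 libraries (1.61, adjusted p = 0.0390), age as a covariate (1.75, adjusted p = 0.0485) and without tumour 5 (1.67, adjusted p = 0.0459). Adjusted p ran up to 0.191 in the other fits, highest without gland 4 and tumours 1 and 6.

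Among the 9 genes that fell were Por, Osbpl1a, Gramd1a, Vldlr, Cav1, Hsd3b7, Abca2 and Rxra. Por, the reductase that feeds electrons to Cyp51 and Sqle, stood at 306, 165, 144 and 40.2 CPM in the glands and 15.6, 14.4, 7.77, 16.7, 13.2 and 29.3 CPM in the tumours. All 6 tumours were below every gland (-3.34 ± 0.51 on the log2 scale, adjusted p = 0.00426, edgeR). As a share of all counts, though, tumour 6 (1052 of 36236732) lay above gland 4 (632 of 27141874). This electron donor fell while Sqle rose, and Cyp51, which was higher in 5 of 6 tumours, did not pass. Cav1, the caveolar coat protein abundant in adipocytes and endothelium, averaged 837 ± 382 CPM (SD, n = 4) in glands and 63.3 ± 37.6 CPM (SD, n = 6) in tumours (-3.73 ± 0.56 on the log2 scale, adjusted p = 0.00422, edgeR). Vldlr, a lipoprotein receptor, averaged 100.02 ± 54.1 CPM (SD, n = 4) in glands against 21.2 ± 10.97 CPM (SD, n = 6) in tumours (-2.24 ± 0.45 on the log2 scale, adjusted p = 0.0118, edgeR). Rxra, the retinoid X receptor that pairs with the liver X receptors on DNA, had means of 97.2 ± 26.7 CPM (SD, n = 4) and 35.2 ± 14.7 CPM (SD, n = 6) in that order (-1.47 ± 0.35 on the log2 scale, adjusted p = 0.0219, edgeR). For Osbpl1a, an oxysterol-binding-protein relative, the means were 40.5 ± 11.1 CPM (SD, n = 4) and 15.5 ± 6.02 CPM (SD, n = 6) (-1.39 ± 0.34 on the log2 scale, adjusted p = 0.0221, edgeR). By TMM-scaled level these 5 genes had every tumour below every gland, and 14 of 15 adipocyte markers fell with them. Of 9 endothelial markers 4 fell (median log2 difference -1.72), each with every tumour below every gland. The 9 summed to 199 to 253 CPM in the glands and 44.8 to 462 CPM in the tumours. Tumour 1 had the highest sum, of which Pecam1 alone made up 408 CPM. Of 10 fibroblast markers 2 fell (median -1.83), with sums of 3608 to 7853 CPM in the glands and 226 to 6639 CPM in the tumours. The part of these cell types was not tested.

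Por, Cav1 and Vldlr kept their calls in all 10 fits that left out 1 library, and Osbpl1a and Rxra in 9, both losing it without gland 1 (adjusted p = 0.0734 and 0.0701). Gramd1a, Abca2 and Hsd3b7 did not separate the groups and lost their calls more often. Gramd1a, a sterol transfer protein, was called in 5 of those fits and lost its call in those without tumour 2, tumour 4 or 1 of glands 1 to 3, with adjusted p reaching 0.0836. Abca2, a transporter of endosomes, was called in 3, those without gland 4, tumour 5 or tumour 6, and reached an adjusted p of 0.129 in the others. Hsd3b7, an enzyme of bile acid synthesis from oxysterols, was called in 2, those without gland 4 or tumour 6 (adjusted p up to 0.178 in the others).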

How the data were processed

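RNA from whole tissue was sequenced as polyA RNA with a NEBNext Ultra kit, per the labels' protocols. The authors deposited 1 table of raw read counts, whole numbers for each gene symbol. Salmon 1.2.0 and DESeq appear in the submitters' processing notes, as does the mm9 build, with no role given. Counting by strand and the summing of transcripts to genes are not given in the sources used here. The reference at hand was GRCm38.p6, so no coordinates were attached to counts.

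Groups came from the labels: 4 glands and 6 tumours. Nothing in the labels states that the libraries are from separate animals, and the p-values measure only the spread between libraries. Ages differ except among glands 1 to 3 and between tumours 1 and 6. Within those 2 sets the spread may be technical. No library was a copy of another: among 45 pairs compared, chi-square per degree of freedom was never under 37.8 (genes with 20 or more counts in the pair). Counts were filtered with filterByExpr, scaled by TMM and tested in edgeR 4.0.16 (R 4.3.3) by quasi-likelihood F tests of tumours against glands, no covariate, and Benjamini-Hochberg adjustment over 20101 genes at 0.05. The biological coefficient of variation was 0.707. TMM factors were 0.422 in tumour 1, 0.580 in gland 4 and 0.889 to 1.41 elsewhere. The standard error is the log2 difference divided by the square root of F, and levels are TMM-scaled CPM, which are not corrected for gene length, so levels were compared between libraries and not between genes. The test was checked on simulated data.

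Alternatives were DESeq2 1.42.0, limma-voom 3.58.1, scaling by RLE or the upper quartile, no filter, at least 1 CPM in 4 libraries, age as a covariate, leaving out each library, and leaving out tumours 1 and 6 without and with gland 4. The 32 genes, the lists of 47 further genes and of cell type markers, and the libraries left out were chosen with earlier results of these data known. The text names all 32 genes, each further gene past the threshold except 1 that is counted but not reported here, and values for those whose groups do not overlap. Cell type markers are given as counts and sums, with values for some single genes that made up much of a sum, and for Fabp4. Promoter windows are RefSeq's, and shared exons are from GENCODE M21, matched by symbol.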

Additional observations from a re-analysis of the deposited data

Results flagged for a closer look

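In 64 groups of 4 or 6 libraries (each of the 32 genes in glands and in tumours) 9 held a library far from the others by Dixon's test, whose 95% limit flags about 1 in 20 groups by chance. That rate is for normally distributed values and independent groups. These were untransformed CPM of related genes in the same 10 libraries, so no excess over that rate is read from the 9. Tumour 3 was the high library in 4 of the 9. It stood at 103.6 CPM for Insig1 (17.3 to 44.1 in the other tumours), 30.4 CPM for Pmvk (7.47 to 14.3), 150.9 CPM for Fdft1 (28.9 to 61.0) and 79.5 CPM for Stard4 (5.69 to 26.1). Tumour 4 stood at 24.6 CPM for Tm7sf2, against 4.18 to 8.14 in the other tumours. Tumour 1, with 52.4% salivary counts, stood at 182.7 CPM for Soat1, against 9.62 to 69.4. Tumour 2 was low for Npc2, at 104.0 CPM against 182 to 228. Among glands, gland 1 was high for Hmgcs1, at 99.8 CPM against 67.3 to 72.2, and gland 4, with 37.5% mitochondrial counts, was low for Ebp, at 20.2 CPM against 28.6 to 30.3.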

How the results depend on the processing

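Of the 32 genes 1 was called higher and 3 lower, and of the 46 further genes 1 and 9. With upper-quartile scaling 3 further genes were called higher. DESeq2 called 5 of the 32 lower and 3 further genes higher. Limma-voom and the unfiltered table each called 0 of the 32 and 0 further genes higher, against 1 of the 32 by edgeR. At least 1 CPM in 4 libraries gave 3 further genes higher. With age as a covariate 0 of the 32 were called higher and 1 lower, and of the further genes 1 higher and 5 lower. Without tumours 1 and 6, 4 of the 32 were called higher and 1 lower, and 2 further genes higher, while 10.1% of all genes tested were called higher and 11.6% lower. Without gland 4 as well, 1 of the 32 was called higher (Sqle) and 8 lower, and 2 further genes higher, while 8.64% of all genes were called higher and 13.5% lower. Leaving out 1 library gave 0 to 1 of the 32 higher and 1 to 7 lower, and 0 to 2 further genes higher and 3 to 9 lower. Over all genes 1384 were called higher and 1646 lower by edgeR, 2657 and 2595 by DESeq2, 908 and 991 with age as a covariate, 430 to 1737 and 623 to 1849 when 1 library was left out, and 1814 and 2826 without gland 4 and tumours 1 and 6. The sign turned for Hmgcs1 (0.0699) and Npc1 (0.0235) with upper-quartile scaling, for Tm7sf2 (-0.25) with limma-voom, for Hmgcs1 (0.13), Nsdhl (0.23) and Soat1 (-0.20) without tumours 1 and 6, and for Fdft1 (0.0479), Dhcr7 (-0.10), Soat1 (-0.52) and Abcg1 (-0.35) without gland 4 as well. Over the fits that left out 1 library the log2 difference ran from -0.33 to 0.0842 for Hmgcs1, -0.65 to 0.0876 for Nsdhl, -0.18 to 0.62 for Abcg1, -0.62 to 0.22 for Tm7sf2 and -0.12 to 0.44 for Dhcr7. None of these genes was called by edgeR on all 10 libraries, and the cause of each change was not tested. No paired analysis was possible because the labels give the groups no shared replicate numbers. The lowest count behind any value of the 32 genes was 40, and the effect of depth on the calls was not tested.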
